A study of Mus musculus with 4 samples.

Results

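The genes described here are the translation factors and aminoacyl-tRNA synthetases of the mouse, 105 of the 21887 protein-coding genes of RefSeq on GRCm38.p6, the assembly of build mm10. Members were defined by symbol: Eif or Eef followed by a digit, or 1 capital letter followed by ars and an optional 1 or 2 at the end. They were chosen with earlier results of these data known. This gave 56 Eif genes, 15 Eef genes and 34 synthetase genes. The rule also allowed Ep before ars, which no symbol has, so Eprs, the glutamyl-prolyl-tRNA synthetase gene, is not among the 105. Farsa, Farsb and Tarsl2 are outside the rule as well. Eef1akmt4-ece2 is a read-through gene that shares its start with Eef1akmt4, and both count as members.

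The peaks come from CUT&Tag of NR1D1 in primary vascular smooth muscle cells of WT mouse aorta. The cells had 24 h of vasostatin-2, a fragment of the secretory protein chromogranin A, or 24 h of PBS, and each treatment had 1 NR1D1 library. IgG control libraries were not analysed here. The sources used here give neither the peptide dose nor the number of animals behind a library, and the libraries carry 1 batch label. With 1 library per treatment there is no replicate error and no test of the treatment, so each difference given here is one between 2 libraries. The peak lists do not measure expression, so the cell type could not be checked that way. Within 1 kb of either gene end, 0 of 4 smooth muscle markers (Acta2, Myh11, Tagln, Cnn1) had a peak in either list, and neither did 3 fibroblast markers or 3 leukocyte markers. Of 3 endothelial markers Nos3 had 1 peak in each list, with 6 fragments at the summit in vasostatin-2 and 14 in PBS. Among all protein-coding genes 82.0% had no peak at an end in either list and 7.19% had one in both. The few markers counted here therefore cannot show which cells were present. What part other cell types had in the peaks was not tested.

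Translation starts when initiation factors load the small ribosomal subunit with initiator tRNA and bring it to the capped end of an mRNA. Elongation factors then deliver the charged tRNAs and move the ribosome along, and synthetases attach each amino acid to its tRNA, with a separate set of enzymes for mitochondria. Cells adjust this machinery mainly at eIF2, whose phosphorylation under stress lowers initiation, and at eIF4E, which the 4E-binding proteins hold back when mTOR signalling is low. NR1D1 (REV-ERB alpha) is a nuclear receptor of the circadian clock that represses transcription and binds AGGTCA preceded by an A/T-rich stretch. In CUT&Tag an antibody against it directs a transposase to nearby chromatin, and the released DNA fragments are sequenced.

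Each peak value below is the number of fragments stacked at the peak's summit, recovered from the authors' fold enrichment and -log10 p. Over whole lists, the median summit held 7 fragments in the vasostatin-2 library (8816 peaks) and 8 in the PBS library (7377 peaks). The vasostatin-2 library was estimated, from the background values of the peaks, to be 1.32 times as deep as the PBS library. Over all pairs of overlapping peaks, the median ratio of summit fragments in vasostatin-2 over PBS was 0.857 before any scaling. Neither list holds a summit of fewer than 4 fragments, so a gene without a peak is one in which none was detectable at this depth.

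In both libraries a larger share of these genes than of all protein-coding genes had a peak at an end, a difference that is described and was not tested. In the vasostatin-2 list 25 of the 105 members had a peak within 1 kb of either gene end (23.8%, 95% Wilson interval 16.7 to 32.8), against 10.4% of all protein-coding genes. In the PBS list 34 members had one (32.4%, 24.2 to 41.8), against 14.8% of all protein-coding genes. Both lists held a peak for 19 members (18.1%, against 7.19% of all genes), the vasostatin-2 list alone for 6 (5.71%, against 3.2%) and the PBS list alone for 15 (14.3%, against 7.58%). The remaining 65 members had no peak at an end in either list. The 19 shared genes were 76.0% of the members with a vasostatin-2 peak and 55.9% of those with a PBS peak. Among all protein-coding genes 69.2% of those with a vasostatin-2 peak and 48.7% of those with a PBS peak were shared. The intervals cover counting error only. Counting only peaks with q under 1e-05 lowered the counts to 10 members in vasostatin-2 (9.52%, against 3.47% of all genes) and 18 in PBS (17.1%, against 7.35%).

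**Figure D1:**
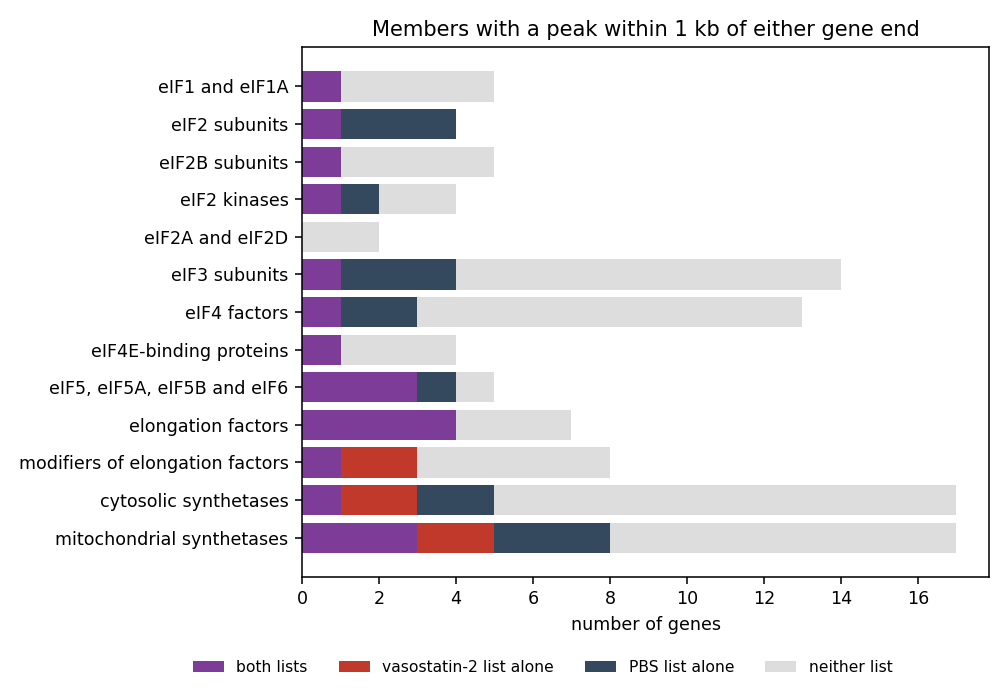
Number of member genes (horizontal axis) by role (vertical axis), coloured by whether a peak lay within 1 kb of either gene end in both lists, in the vasostatin-2 list alone, in the PBS list alone or in neither. Of the eIF2 subunit genes 1 had a vasostatin-2 peak and all 4 a PBS peak, against 10.4% and 14.8% of all protein-coding genes. All 10 initiation-factor genes of the vasostatin-2 list were in the PBS list too, against 69.2% of all protein-coding genes with a vasostatin-2 peak.

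The 6 promoters below carried peaks of both lists and the most summit fragments among members whose RefSeq promoter window (250 bases before to 50 after a transcript start) was overlapped by both. They are given 5′ to 3′ on the gene's strand from RefSeq on GRCm38.p6, with matches to the motifs searched in capitals. In Eif5a the longest run of capitals is a GGGTCA that overlaps a CACGTG, and the other capitals are matches to the NRF1 site. The capitals in Eif4a1 are a CACGTG, and the other 4 windows held no match.
Eif5a, chr11:69921337-69921636, minus strand: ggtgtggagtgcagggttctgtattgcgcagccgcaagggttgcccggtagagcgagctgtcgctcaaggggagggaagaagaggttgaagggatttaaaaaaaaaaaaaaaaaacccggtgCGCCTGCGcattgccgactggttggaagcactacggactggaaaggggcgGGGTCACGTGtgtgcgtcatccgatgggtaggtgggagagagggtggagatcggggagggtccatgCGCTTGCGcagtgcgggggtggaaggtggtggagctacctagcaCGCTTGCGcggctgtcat
Eif4ebp2, chr10:61452620-61452919, minus strand: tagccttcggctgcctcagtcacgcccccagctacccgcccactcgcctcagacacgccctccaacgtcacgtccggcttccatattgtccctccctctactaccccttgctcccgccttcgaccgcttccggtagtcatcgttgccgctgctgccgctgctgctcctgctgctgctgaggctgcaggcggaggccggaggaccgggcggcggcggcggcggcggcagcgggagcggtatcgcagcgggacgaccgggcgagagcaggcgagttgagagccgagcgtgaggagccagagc
Eif4a1, chr11:69672374-69672673, minus strand: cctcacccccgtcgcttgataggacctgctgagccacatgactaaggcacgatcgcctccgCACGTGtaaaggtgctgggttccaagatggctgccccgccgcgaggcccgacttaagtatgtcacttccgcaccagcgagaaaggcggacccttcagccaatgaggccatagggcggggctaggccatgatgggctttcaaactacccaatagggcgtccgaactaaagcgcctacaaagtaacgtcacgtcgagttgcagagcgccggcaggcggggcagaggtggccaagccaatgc
Eif2ak4, chr2:118388367-118388666, plus strand: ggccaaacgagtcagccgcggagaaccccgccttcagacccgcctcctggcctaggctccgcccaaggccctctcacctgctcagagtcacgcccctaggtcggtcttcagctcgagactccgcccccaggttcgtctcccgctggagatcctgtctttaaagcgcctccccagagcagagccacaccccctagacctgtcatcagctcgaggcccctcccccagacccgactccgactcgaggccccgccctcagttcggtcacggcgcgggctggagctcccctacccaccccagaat
Eef1a1, chr9:78481675-78481974, minus strand: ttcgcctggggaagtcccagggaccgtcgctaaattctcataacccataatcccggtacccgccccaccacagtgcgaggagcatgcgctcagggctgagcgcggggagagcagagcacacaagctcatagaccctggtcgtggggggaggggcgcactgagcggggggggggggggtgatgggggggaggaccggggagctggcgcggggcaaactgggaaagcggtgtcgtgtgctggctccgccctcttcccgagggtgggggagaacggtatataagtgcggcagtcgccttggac
Eef2kmt, chr16:5255907-5256206, minus strand: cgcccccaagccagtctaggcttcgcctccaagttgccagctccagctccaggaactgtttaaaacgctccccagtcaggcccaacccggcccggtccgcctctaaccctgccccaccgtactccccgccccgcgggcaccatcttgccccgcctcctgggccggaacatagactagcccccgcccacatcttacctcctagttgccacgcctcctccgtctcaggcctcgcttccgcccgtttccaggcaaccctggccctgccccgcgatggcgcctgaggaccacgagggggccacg

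Matches to the REV-ERB site were absent from every one of these windows and from all 95 promoter windows of the 79 members in the RefSeq table. Only these windows were searched, not the peaks themselves, and some summits lie outside them. The Eif4ebp2 summits, for example, lie at -425 (vasostatin-2) and -305 (PBS) from its nearest transcript start. Whether the peaks hold the site was not tested. The forms searched, on both strands, were ANTAGGTCA, found in 0.517% of 21263 promoter windows of protein-coding genes, and ANTGGGTCA, found in 0.691%. At such low shares, absence from 95 windows does not set the members apart from other genes. The six-base core AGGTCA was found in 3 of the 16 member windows with peaks of both lists, belonging to Eif5a and Fars2, and in 14.7% of all windows. GGGTCA was found in 3 of the 16 windows (Eif5a and Nars2) and in 13.7% of all windows. In the Eif5a window above, GGGTCA starts at -78 and CACGTG, an E-box, at -74, counted from the transcript start as 0. CACGTG was present in 3 of the 16 windows (Eif4a1 and Eif5a), in 22.1% of the 95 member windows and in 7.84% of all windows. CGCNTGCG, a form of the NRF1 site, was present in 5 of the 16 (Eif2s1 and Eif5a), in 26.3% of member windows and in 11.1% of all. CCGGAAGT, the ETS site, was present in 1 of the 16 (Eif2b4), in 13.7% of member windows and in 5.15% of all. In the 66 member windows without a peak, CACGTG was present in 22.7%, CGCNTGCG in 21.2% and CCGGAAGT in 18.2%. In the 29 with a peak of either list these shares were 20.7%, 37.9% and 3.45%. Each of these 3 sites holds a CpG, and member windows are richer in CpG than all windows. The part of CpG content in these shares was not tested. TGANGCAA, the composite site of ATF4 and C/EBP factors, was present in the windows of Aars, Iars, Tars and Yars (4.21% of member windows, against 3.48% of all), none of which held a peak of either list in the window. TGACGTCA, the CRE, was present in 1 member window (Eef2), and AAGATGGCG, a form of the YY1 site, in 7, none of the 8 among the 16. A match is a match of letters, and several windows belong to 1 gene, 4 of the 16 to Eif5a.

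Among initiation factors, Eif5a and Eif4ebp2 had the strongest peaks, in both libraries. Eif5a encodes a factor that carries hypusine and helps the ribosome past difficult stretches, and Eif4ebp2 encodes an inhibitor of the cap-binding protein eIF4E. The Eif5a summit held 22 fragments in the vasostatin-2 library (8.7-fold enrichment over the local background, chr11:69921179-69921792) and 48 in the PBS library (12.99-fold, chr11:69921184-69921780). Both lists placed that summit on the same base, 338 bp inside the gene's start and at -234 from the nearest of its annotated transcript starts. The Eif4ebp2 summit held 21 fragments in the vasostatin-2 library (9.7-fold, chr10:61452864-61453396) and 32 in the PBS library (13.4-fold, chr10:61452865-61453172). Within its own list this Eif4ebp2 peak ranked in the top 2.89% by fold in vasostatin-2 and the top 1.11% in PBS. Of the other 3 genes of this class, Eif4ebp1, Eif4ebp3 and Eif4enif1, none had a peak at an end. Eif5 and Eif5b act on GTP hydrolysis by eIF2 and on the joining of the ribosomal subunits. Eif5 had 11 fragments in vasostatin-2 and 12 in PBS, and Eif5b had 8 in vasostatin-2 and 10 in PBS. Eif5a2, a second eIF5A gene, had no peak. Eif6, which keeps the large subunit free until it is needed, had 12 fragments in the PBS list alone (5.2-fold).

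Of the 4 genes for eIF2 subunits, 1 had a vasostatin-2 peak and all 4 had a PBS peak. The vasostatin-2 list also held fewer genes with a peak over all protein-coding genes, 10.4% of them against 14.8% in the PBS list. Eif2s1, the alpha subunit that stress kinases phosphorylate, had 5 fragments in the vasostatin-2 library and 5 in the PBS library. Eif2s2, the beta subunit, had 7 fragments in PBS alone (5.37-fold). The gamma subunit genes on the X and Y chromosomes, Eif2s3x (11 fragments, 7.2-fold) and Eif2s3y (4 fragments), were in PBS alone as well. Eif2ak4, the GCN2 kinase that senses uncharged tRNA, had 12 fragments in the vasostatin-2 library (7.36-fold, chr2:118388427-118388762) and 21 in the PBS library (12.1-fold, chr2:118388436-118388865), again with 1 common summit base, 24 bp outside the gene's start. Eif2ak3, the PERK kinase of the endoplasmic reticulum, had 10 fragments in PBS alone (6.68-fold), and the other two kinase genes, Eif2ak1 (the heme-regulated kinase) and Eif2ak2 (PKR), had no peak. Of 5 genes for eIF2B, the exchange factor of eIF2, Eif2b4 had 7 fragments in vasostatin-2 and 6 in PBS. Its peaks lay 154 bp apart and did not overlap, the only such case among the 19 members found in both lists. Eif2a and Eif2d, which can bring initiator tRNA to the ribosome without eIF2, had no peak.

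Most genes of the eIF3 and eIF4 groups had no peak in either list, as most protein-coding genes do: 71.4% of eIF3 genes, 76.9% of eIF4 genes and 82.0% of all. Of 14 genes for eIF3, the scaffold of initiation on the small subunit, 1 had a vasostatin-2 peak and 4 a PBS peak. Eif3c had 6 fragments in vasostatin-2 and 7 in PBS. Eif3j1 had 20 fragments in PBS (9.48-fold, chr2:122028331-122028578), the highest summit of a member found in 1 list alone, and the nearest vasostatin-2 peak was 72001 bp away. Eif3a and Eif3b had 7 fragments each in PBS alone (5.52-fold and 4.98-fold). Of 13 eIF4 genes, Eif4a1, the RNA helicase of the cap-binding complex, had 13 fragments in vasostatin-2 (6.15-fold, chr11:69672342-69672594) and 21 in PBS (7.2-fold, chr11:69672063-69672673). Eif4a3, a related helicase of the exon junction complex, and Eif4g2, a relative of the eIF4G scaffolds, were in PBS alone, with 11 fragments (6.09-fold) and 7 fragments (4.75-fold). Eif4e itself and the scaffold gene Eif4g1 had no peak. Eif1, which guards start codon choice, had 10 fragments in the vasostatin-2 library and 22 in PBS, and the other 4 genes of its class had none.

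The 7 genes classed here as elongation factors were found in both lists or in neither. Eef1a1, Eef1d, Eef1g and Eef2 had a peak in each library (57.1% of the 7, against 7.19% of all protein-coding genes). Over all protein-coding genes 69.2% of those with a vasostatin-2 peak and 48.7% of those with a PBS peak were shared. Eef1a1, which delivers charged tRNA, had 12 fragments in vasostatin-2 (6.7-fold, chr9:78481694-78482154) and 17 in PBS (7.82-fold, chr9:78481454-78482277). Of the subunits of its exchange factor, Eef1g had more than Eef1a1, with 16 fragments in vasostatin-2 and 22 in PBS, and Eef1d had 12 in vasostatin-2 and 15 in PBS. Eef2, the translocase, had 13 in vasostatin-2 and 24 in PBS, but at the far end of the gene and not at its start: the summit lay 268 bp beyond the end of Eef2 in vasostatin-2 and 224 bp in PBS. From the nearest end of the neighbouring gene Dapk3 it was 210 bp away in vasostatin-2 and 254 bp in PBS. A transcript start of Dapk3 lay 230 bp from the summit in vasostatin-2 and 274 bp in PBS. Eef1a2, Eef1b2 and Eef1e1 had no peak. Among genes for enzymes that modify elongation factors, Eef2kmt, a lysine methyltransferase for eEF2, had 8 fragments in the vasostatin-2 library and 18 in PBS. The Eef2kmt summits lay 131 bp (vasostatin-2) and 38 bp (PBS) before its start. From a transcript start of Gm15983 they were 124 bp (vasostatin-2) and 31 bp (PBS) away. Eef1akmt4 and its read-through gene shared 1 peak of 10 fragments found in vasostatin-2 alone (7.15-fold, chr16:20611589-20611828), 75862 bp from the nearest PBS peak. Eef2k, the kinase that switches eEF2 off, and 4 further methyltransferase genes had no peak at an end.

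**Figure D2:**
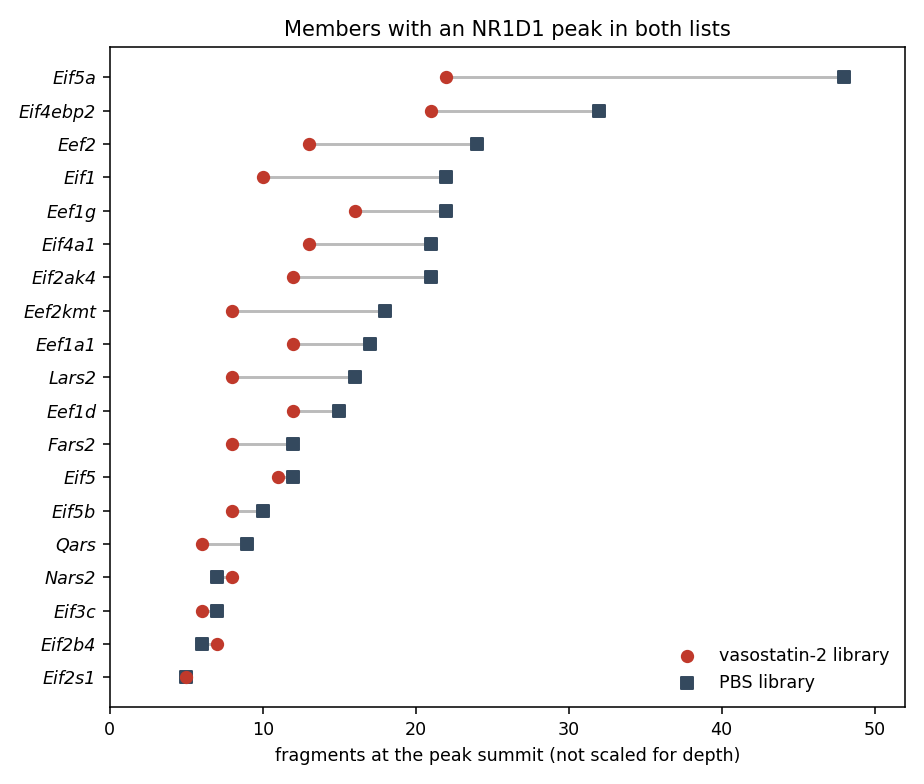
Fragments at the summit (horizontal axis, not scaled for depth) for the 19 members with a peak in both lists (vertical axis), as circles for the vasostatin-2 library and squares for the PBS library, joined by a line. Eif5a held the most in both libraries, with 22 fragments in vasostatin-2 and 48 in PBS, and in Nars2 and Eif2b4 the vasostatin-2 circle lies right of the PBS square by 1 fragment.

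Synthetase genes held at most 16 fragments at a summit. Most of those with a peak were found in 1 list, as were most protein-coding genes with a peak. Of 17 genes for mitochondrial enzymes, those with a 2 at the end of the symbol, 5 had a vasostatin-2 peak and 6 a PBS peak. Of 17 genes for cytosolic enzymes, a few of which also serve mitochondria, 3 had a vasostatin-2 peak and 3 a PBS peak. Of these only Qars was in both lists. The vasostatin-2 shares were 29.4% of mitochondrial and 17.6% of cytosolic genes, against 10.4% of all protein-coding genes. The PBS shares were 35.3% of mitochondrial and 17.6% of cytosolic genes, against 14.8% of all. Fars2, for phenylalanine, had 8 fragments in vasostatin-2 and 12 in PBS, with summits within 2 bp of a transcript start. Nars2, for asparagine, had 8 in vasostatin-2 and 7 in PBS, and Qars, for glutamine, 6 in vasostatin-2 and 9 in PBS. Lars2, for leucine, had 8 fragments in vasostatin-2 (6.51-fold, chr9:123461911-123462132) and 16 in PBS (9.86-fold, chr9:123461911-123462106). These Lars2 peaks began on the same base and lay inside the gene, with summits 653 bp (vasostatin-2) and 648 bp (PBS) from its far end. The vasostatin-2 list alone held, among others, peaks with 6 fragments each at Aars (alanine, 4.81-fold) and Mars2 (methionine, 4.75-fold), and with 11 at Vars (valine, 5.25-fold). The nearest PBS peak was 107737 bp from the peak at Aars, 148922 bp from Mars2 and 18754 bp from Vars. The PBS list alone held peaks at Sars2 (serine, 5.1-fold) with 12 fragments, Mars1 and Vars2 with 7 each, Iars2 with 6 and Dars with 4. Counted together, 4 of 34 synthetase genes were in both lists (11.8%), 4 in vasostatin-2 alone (11.8%) and 5 in PBS alone (14.7%). For initiation factors the same counts were 10, 0 and 10 of 56 genes (17.9%, 0% and 17.9%). The same shares of all protein-coding genes were 7.19%, 3.2% and 7.58%. No difference between classes was tested.

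Where strand was given, peaks sat at the start of the gene and seldom at its far end. Of the 79 members in the RefSeq promoter table, 19 had a vasostatin-2 peak within 1 kb of the start (24.1%) and 2 within 1 kb of the far end (2.53%), and 28 had a PBS peak at the start (35.4%) and 2 at the far end. The far-end genes were Eef2 and Lars2 in both lists. Among all 17492 protein-coding genes in that table the shares at the start were 9.83% in vasostatin-2 and 14.6% in PBS, and at the far end 1.15% in vasostatin-2 and 1.39% in PBS. The median distance of the summit from the nearer gene end was 182 bp in vasostatin-2 and 212 bp in PBS. Of the 21 vasostatin-2 peaks with a known start 17 had the summit within 500 bp of it, and of 30 PBS peaks 25 did. The Aars summit lay 105 bp outside the gene's annotated start but at -6169 from the nearest Aars transcript start in the promoter table, and 97 bp from a transcript start of the neighbouring gene Ddx19b. Among the other upstream summits those of Eif5b were the farthest, at 896 bp (vasostatin-2) and 980 bp (PBS) before its start, and 180 bp (vasostatin-2) and 264 bp (PBS) from the nearest end of Txndc9. A transcript start of Txndc9 lay 94 bp from the Eif5b summit in vasostatin-2 and 178 bp in PBS. Widening the window to 3 kb added Eif4ebp1 to the vasostatin-2 genes and, among others, Cars2 and Eif3k to the PBS genes.

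**Figure D3:**
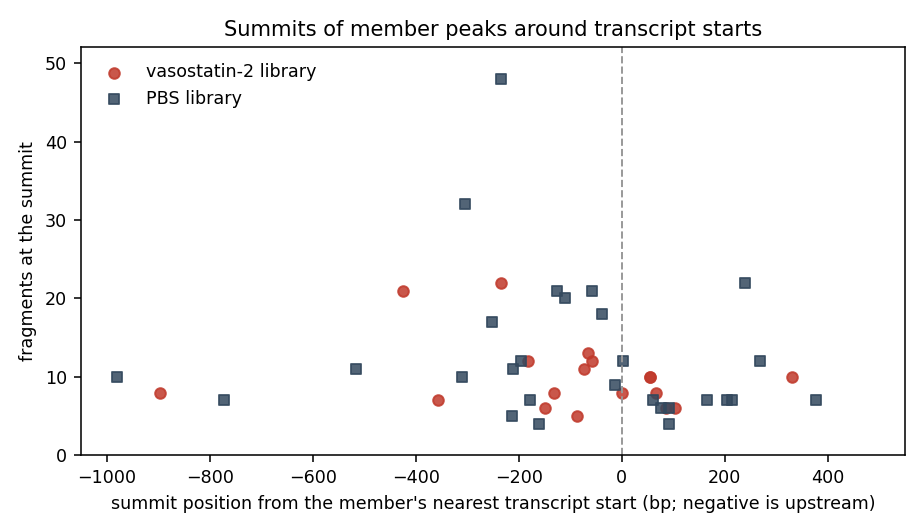
Position of member peak summits from the nearest transcript start of that gene (horizontal axis, in bp, negative upstream), for those within 1000 bp of one, against fragments at the summit (vertical axis), with circles for the vasostatin-2 library and squares for the PBS library. Most summits lie within 500 bp of the start, and the highest, Eif5a in PBS with 48 fragments, lies at -234 bp.

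Many of these peaks have another gene close by. Of the 25 member genes with a vasostatin-2 peak, 12 had an end of another protein-coding gene within 1 kb of the summit, and in 6 of them (Eef1d, Eef2, Eif2b4, Eif2s1 and Eif5b among them) that end was nearer than the member's own. Of the 34 with a PBS peak 12 had such a neighbour, which was nearer in Eef1d, Eif2s1, Eif5b and Eif6. Which of the genes a peak belongs to was not tested. Of members with another gene's end within 1 kb of either of their own, peak or not, 16 of 52 had a vasostatin-2 peak (30.8%, against 19.3% of all such genes) and 18 of 52 a PBS peak (34.6%, against 27.3%). Members without one had a vasostatin-2 peak in 9 of 53 cases (16.98%, against 7.45% of all such genes) and a PBS peak in 16 of 53 (30.2%, against 10.7% of all such genes).

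CpG content differed as well, and over all protein-coding genes the share with a peak rose with it. Among members the share was no higher with 20 CpG or more than with 10 to 19. The promoter windows of members held a median of 22 CpG, both with and without a peak in the window, against 13 in all windows. Among all genes whose richest window holds 20 CpG or more, 18.2% had a vasostatin-2 peak and 26.8% a PBS peak. Of the 48 members in that class 13 had a vasostatin-2 peak (27.1%) and 19 a PBS peak (39.6%). With 10 to 19 CpG, 8 of 27 members had a vasostatin-2 peak (29.6%, against 13.3% of all genes in the class) and 11 a PBS peak (40.7%, against 18.8%). With fewer than 10 CpG, 0 of 4 members had a peak, where all 7084 such genes had one in 2.33% of cases in vasostatin-2 and 3.05% in PBS. The part of CpG content in the members' share was not tested beyond these classes.

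At sites found in both lists, the vasostatin-2 library held fewer fragments per unit of depth at each of 18 overlapping pairs of member peaks, though not on every scale. Of these pairs 16 had fewer fragments in vasostatin-2 before any scaling, 1 (Eif2s1) had equal numbers and 1 (Nars2) had more. After division of the vasostatin-2 fragments by 1.32, the median log2 ratio of vasostatin-2 over PBS was -0.98, ranging from -1.57 at Eef2kmt to -0.21 at Nars2. At 1207 pairs of shared peaks at the ends of all protein-coding genes the median was -0.86, and 95.5% of those pairs were lower in vasostatin-2. The ratio was -1.52 at Eif5a (95% interval from the exact binomial interval of the fragments, -2.32 to -0.77), -1.54 at Eif1 (-2.78 to -0.40) and -1.01 at Eif4ebp2 (-1.87 to -0.17). The interval lay below 0 in 8 of the 18 pairs: these 3 genes, Eef2, Eef2kmt, Eif2ak4, Eif4a1 and Lars2 (44.4%, against 23.7% of the 1207 pairs). That count rests on the estimated depth: with raw fragments, or scaled by the median of all shared pairs, Eif5a alone of the 18 had an interval below 0 (5.56%, against 8.04% of the 1207 pairs with raw fragments and 3.81% on the scale of shared pairs). At Eef1a1 it spanned 0, with -0.90 (-2.10 to 0.25). These intervals cover counting error at 1 summit in each library and take the depth factor as known. With the median of all shared pairs as the scale, a factor of 0.857 in place of the estimated 1.32, the members' median was -0.36. On that scale Eif2s1, Eif5 and Nars2 were higher in vasostatin-2 and Eif3c was equal.

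Whether a member was found in 1 list or both went with the strength of its peak. Of the 12 members with 13 or more fragments in PBS, 11 also had a vasostatin-2 peak, and Eif3j1 was the exception. With 8 to 12 fragments 4 of 9 did, and with 4 to 7 fragments 4 of 13. Over all protein-coding genes the same PBS classes were found in the vasostatin-2 list in 77.5%, 45.7% and 19.1% of cases, from the strongest to the weakest. For the vasostatin-2 list, all 5 members with 13 or more vasostatin-2 fragments had a PBS peak, as had 10 of 13 with 8 to 12 and 4 of 7 with 4 to 7. Over all genes these vasostatin-2 classes were found in the PBS list in 94.6%, 78.1% and 46.5% of cases, from the strongest to the weakest, close to the members' shares. Of the 15 members found in PBS alone 9 had 4 to 7 fragments. These were Dars, Eif2s2, Eif2s3y, Eif3a, Eif3b, Eif4g2, Iars2, Mars1 and Vars2. Their absence from the vasostatin-2 list is not shown to be a loss of the peak.

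Related genes of translation outside the rule also had peaks. Of 44 genes, 13 had a vasostatin-2 peak (29.5%) and 14 a PBS peak (31.8%), against 10.4% of all protein-coding genes in vasostatin-2 and 14.8% in PBS, and 11 had both. The strongest were Mknk2, a kinase that phosphorylates eIF4E, with 23 fragments in vasostatin-2 and 38 in PBS, and Ddit3, the CHOP factor of the stress response, with 19 in vasostatin-2 and 33 in PBS. Mtrf1l, a mitochondrial release factor, had 17 in vasostatin-2 and 30 in PBS. Rheb, the GTPase that activates mTOR, had 19 in vasostatin-2 and 22 in PBS, and Atf4, the transcription factor translated when eIF2 is phosphorylated, 10 in vasostatin-2 and 13 in PBS. Etf1, the release factor of termination, had 13 in vasostatin-2 and 27 in PBS. Ppp1r15b, whose product directs a phosphatase to eIF2, had 10 in vasostatin-2 and 11 in PBS, and its stress-induced relative Ppp1r15a had 10 in PBS alone. By list, genes of the stress response and mTOR had a peak in 5 of 15 cases in vasostatin-2 and 7 of 15 in PBS. Factors of termination, recycling and control of initiation counted 5 of 13 in vasostatin-2 (Dohh, Etf1, Gspt1, Paip1, Paip2) and 4 of 13 in PBS (Dohh, Etf1, Pabpc1, Paip1). Of 10 mitochondrial translation factors Mtrf1l alone had a peak, in both lists. Of 6 synthetase and scaffold genes outside the rule Aimp2 and Tarsl2 had one in both lists, and Eprs had none.

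Other large gene families of protein synthesis and turnover had smaller shares than the members in both libraries, and larger ones than all genes except for the proteasome genes in vasostatin-2. Of 87 cytosolic ribosomal protein genes 12 had a vasostatin-2 peak (13.8%, 95% Wilson interval 8.07 to 22.6) and 21 a PBS peak (24.1%, 16.4 to 34.1). Of 78 mitochondrial ribosomal protein genes 12 had a vasostatin-2 peak (15.4%, 9.03 to 25.0) and 22 a PBS peak (28.2%, 19.4 to 39.0). Of 40 proteasome subunit genes 3 had a vasostatin-2 peak (7.5%, 2.58 to 19.9) and 11 a PBS peak (27.5%, 16.1 to 42.8). The members' intervals overlapped those of each of these families in both libraries, and no difference between families was tested.

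**Figure D4:**
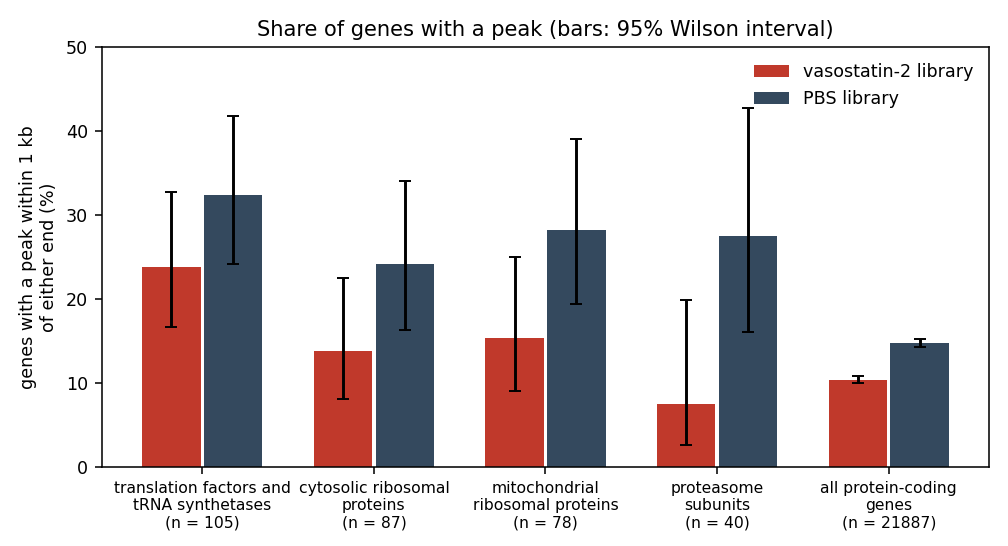
Share of genes whose ends (1 kb around either) carry a peak (vertical axis, in percent) for the members, 3 other gene families and all protein-coding genes (horizontal axis), with the vasostatin-2 library left of the PBS library and bars for the 95% Wilson interval. The members stand at 23.8% in vasostatin-2 and 32.4% in PBS, and all protein-coding genes at 10.4% in vasostatin-2 and 14.8% in PBS.

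Peaks inside the gene, more than 1 kb from either end, were counted apart. In the vasostatin-2 list 7 members had 1 such peak each (6.67%, against 11.2% of all protein-coding genes), and 6 of them had none at an end. In the PBS list 9 had 1 each (8.57%, against 8.84% of all genes), and 5 of them had none at an end. The strongest lay in Eif3b, with 20 fragments in vasostatin-2 and 24 in PBS. All others held 4 to 7 fragments, at Eef1akmt1, Eif3h, Eif4ebp1, Eif4enif1, Lars2 and Wars in vasostatin-2 and at Cars2, Dars, Eif3j1, Eif4enif1, Eif4g3, Fars2, Iars and Lars in PBS.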

How the data were processed

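NR1D1 peak lists of 1 vasostatin-2 and 1 PBS library were used; the labels give no replicates. Trimmomatic 0.39, BWA 0.7.17, MACS2 2.2.7.1 and build mm10 are named in the submitters' processing notes without roles or settings. The deposited fold enrichment is the ratio (fold) of summit signal over local background, and the deposited -log10 p and -log10 q belong to the summit. The deposited score is -log10 q times 10, rounded down, and was not used. These are the authors' values; positions are written from 1.

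Summit fragments came from solving fold = (k + 1)/(background + 1) and the Poisson tail p for whole k; 100% of peaks were solved within 0.0005 of the deposited -log10 p, 4 PBS peaks with a close second solution. On 3000 simulated peaks 100% were recovered. The lowest background (0.381 fragments in vasostatin-2, 0.31 in PBS) and its step, read as fragments of 182.5 bp in vasostatin-2 and 195.75 bp in PBS over an assumed 10000 bp window, gave the depth factor of 1.32.

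A gene counted when any base of a peak lay within 1 kb of either end in RefSeq GRCm38.p6; peaks paired at 1 bp of overlap. The ribosomal list leaves out 10 S6 kinase genes that share its prefix. Members with a peak are named, except for 1 that is not reported here. Members, lists and motifs were chosen with earlier results of these data known; CpG, neighbour and fragment classes and the intervals of ratios were added after the data were seen. Python 3.11.15, scipy 1.17.1 and statsmodels 0.14.6 were used. Alternatives were other windows, peak filters, depth scales and pairings.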

Additional observations from a re-analysis of the deposited data

How the results depend on the processing

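No paired analysis was possible because each treatment has 1 library. Counts of members with a peak stayed within 1.5 times the reported ones with windows of 500 bp and 3 kb, with the summit required in the window (25 in vasostatin-2 and 34 in PBS, as reported) and with gene starts alone (19 of 79 in vasostatin-2 and 28 of 79 in PBS). With q under 1e-05, 10 members had a vasostatin-2 peak, 18 a PBS peak, 8 both and 2 vasostatin-2 alone. With at least 8 fragments, 21 had a PBS peak and 7 a PBS peak alone. Over all protein-coding genes that rule left 6.36% with a vasostatin-2 peak and 10.6% with a PBS peak. With vasostatin-2 fragments thinned to the PBS depth and at least 8 in both lists, 10 had a vasostatin-2 peak and 21 a PBS peak. In that setting 9 members had both and 1 vasostatin-2 alone. The same setting left 3.82% of all protein-coding genes with a vasostatin-2 peak and 10.6% with a PBS peak. The lower vasostatin-2 count is therefore not particular to the members. Stricter rules lower counts by construction; why members differ in it was not tested. The median log2 ratio at pairs, -0.98 as reported, was -0.58 with raw fragments, -0.36 scaled by all shared pairs and -1.21 at 7 pairs with at least 30 fragments together. Pairs whose interval lay below 0, 8 as reported, were 1 with raw fragments and 1 scaled by all shared pairs, both alternatives chosen after seeing the data. The median was the same with summits within 200 bp or overlap of at least 50% of both peaks, and negative in each of these settings; for the ratio, the cause was not tested beyond the change of scale and of pairs. Most peaks rest on few fragments, which limits every count of members in 1 list.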
